A study of Solanum lycopersicum with 6 samples.

Results

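The genes described here are heat shock protein (HSP) chaperones of the tomato root, chosen as a fixed list of 10 loci: 6 small HSPs, 1 HSP70, 1 BiP, 1 HSP90 and 1 HSP101. Rows of the count table were matched by locus, the part of the identifier before the first dot, and 9 of the 10 loci were found among 34688 gene models. The small HSP Solyc08g062450 was not analysed here. The classes are those of the list, since the count table carries no descriptions, and 0 of the 59 loci used here matched the RefSeq gene table of tomato. The chaperone identity of single loci was therefore not checked, and no sequence is shown.

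Both groups were wild-type tomato seedlings of cultivar M82, grown at 23 °C and harvested 7 days after sowing, from which 50 to 100 primary root tips of about 3 cm were pooled per sample. The protoplasted group (3 libraries) was digested in cellulases, Macerozyme and Pectolyase with 0.6 M mannitol and mercaptoethanol for 2 h at 25 °C with shaking, then filtered and spun, which leaves single cells without walls. The whole group (3 libraries) is labelled whole roots and was taken from that label to be intact tips that were not digested. No mock incubation of intact tips is named, so the enzymes, the osmoticum, the incubation and the handling cannot be told apart as sources of a difference. RNA was read near the 3′ end of each transcript, so values are given as counts scaled to a library total of 1000000 after TMM normalization (normalized CPM) and not per length, and levels are compared between libraries, not between genes.

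Chaperones bind proteins that are unfolded, newly made or damaged. Small HSPs hold unfolding proteins without using ATP and are nearly silent in unstressed vegetative tissue of many plants. HSP70 and HSP90 fold client proteins with ATP, BiP is the HSP70 of the endoplasmic reticulum lumen and a usual reporter of protein load there, and HSP101 pulls apart protein aggregates and is needed for acquired heat tolerance in Arabidopsis. Small HSPs, HSP101 and the inducible members of the other families are classical targets of heat shock transcription factors (HSFs).

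The libraries held between 5198513 and 5790082 estimated counts, and a count of 0 allows a level of up to 0.518 to 0.577 CPM (3 counts of the total, counting error only). The labels give the libraries of a group as separate samples but do not say how they were separated in growth, so p-values measure the spread between these samples. Of the 11 suberin genes, the regulator SlMYB92 included, that the study's text places at the exodermal end of its single-cell data, 10 were analysed (SlFAR3B was not analysed here). These 10 were detected in whole roots. By edgeR's quasi-likelihood test (adjusted p under 0.05), 18.7% of all genes tested were lower in protoplasts, and so were all 10. Their summed level was 12.1, 14.6 and 50.0 normalized CPM in protoplasted replicates 1, 2 and 3, against 1422, 1640 and 2812 in whole roots. This marker list therefore moved with the groups and was highest in replicate 3 of both. Its part in the chaperone results below was not tested, and fewer cells of a type and less RNA per cell cannot be told apart in these bulk samples.

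Of the 8 chaperone genes with enough counts to be tested, 5 fell in protoplasts and 1 rose. The 5 were the small HSPs Solyc03g082420, Solyc06g076520 and Solyc09g015020, the HSP90 gene and the HSP101 gene, and the 1 that rose was the BiP gene (edgeR's quasi-likelihood test, Benjamini-Hochberg adjusted p under 0.05 over all genes tested). Over the 15966 genes tested, 18.7% were lower and 17.0% were higher by the same rule. All 5 had a log2 fold change under -2, as did 9.78% of all genes tested at an adjusted p under 0.05. The median log2 fold change was -2.89 over the 8 chaperone genes and 0.02 over all genes tested. Without protoplasted replicate 2, the count of lower genes was 2, namely Solyc03g082420 and Solyc09g015020. In that fit 12.4% of all genes tested were lower and 9.14% were higher, so calls were fewer over all genes too. With the replicate number as a block, 7 were lower and 1 was higher, where 24.3% and 25.0% of all genes tested were lower and higher.

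**Figure D1:**
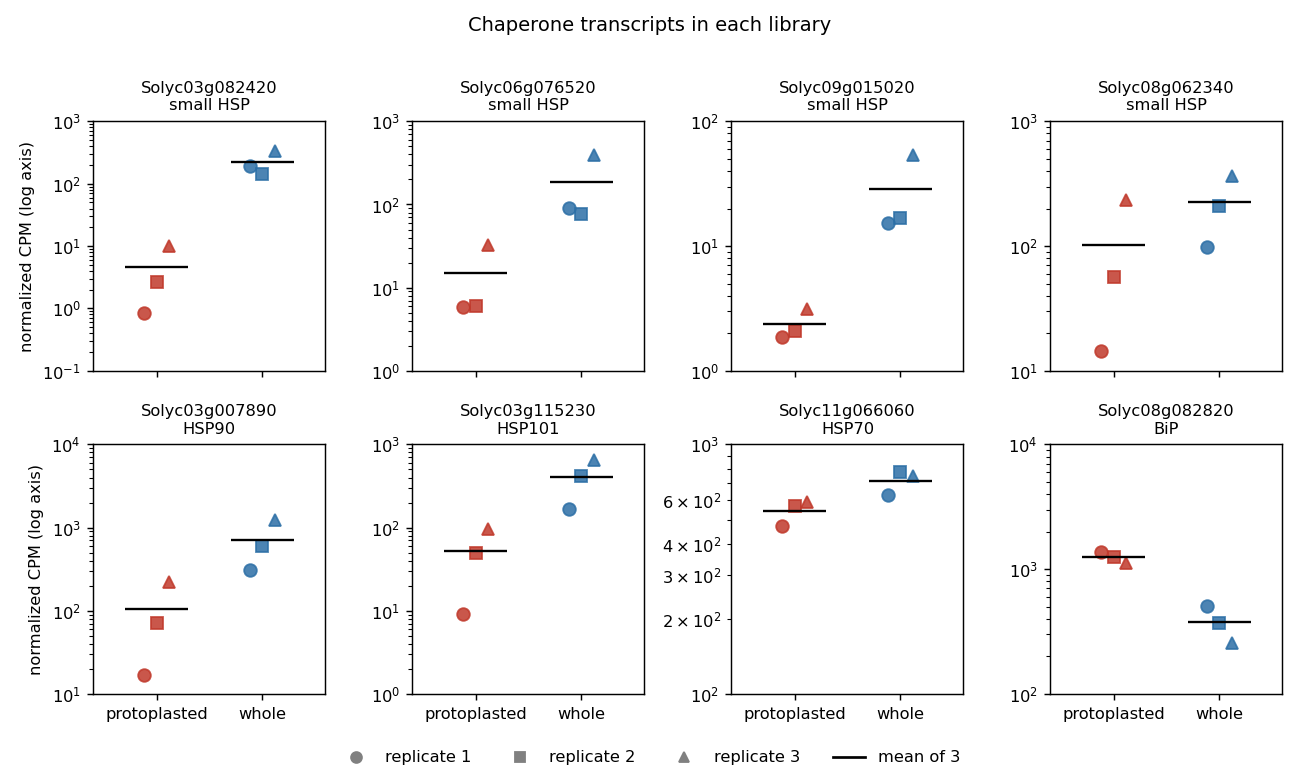
Normalized CPM (log axis, scaled per panel) of the 8 tested chaperone genes in each library, protoplasted at left and whole at right in each panel; symbols mark the replicate number and the line is the mean of 3 libraries. The groups are separated downwards in 6 panels, upwards for the BiP gene, and overlap for the small HSP Solyc08g062340.

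The small HSP Solyc03g082420 had the lowest fitted fold change of the list. It stood at 0.849, 2.70 and 10.2 normalized CPM in protoplasted replicates 1, 2 and 3, against 194, 144 and 331 in whole roots. The highest protoplasted library lay far below the lowest whole library, and protoplasted replicate 1 held only 4.07 estimated counts, close to the limit. The log2 fold change was -5.58 (95% interval -7.28 to -3.88), or 47.9-fold lower (edgeR, adjusted p = 0.00118). Without protoplasted replicate 3 it was -7.00, or 128-fold lower.

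Solyc06g076520, a small HSP of chromosome 6 by its identifier, had 5.88, 6.02 and 32.5 normalized CPM in the protoplasted libraries, against 91.5, 77.7 and 391.9 in the whole libraries. Replicate 3 stood above the other two in both groups, by 5.53 times and 4.28 times over replicate 1 in protoplasts and whole roots. The groups did not overlap. Its log2 fold change was -3.65 (standard error 0.87, adjusted p = 0.0123 in edgeR), and -3.28 with an adjusted p of 0.0603 without protoplasted replicate 2 (3.5e-06 to 0.0603 over all alternatives). It was -2.50 without whole replicate 3 and -5.01 without protoplasted replicate 3.

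The small HSP Solyc09g015020 was the most even of the small HSPs among protoplasts, with 1.88, 2.08 and 3.10 normalized CPM there, against 15.3, 16.7 and 53.4 in whole roots. These protoplasted values rest on 9, 10.1 and 17.1 estimated counts. Here too the groups were fully apart, and the log2 fold change was -3.58 (95% interval -4.89 to -2.28, adjusted p = 0.00229 in edgeR), or -2.76 without whole replicate 3. For this gene the estimates were fractional in 5 of 6 libraries, and for Solyc06g076520 and Solyc03g082420 in all 6. Kallisto had thus divided some of their reads among similar transcripts, so the levels of these genes are less certain than the counts alone imply.

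The small HSP Solyc08g062340 did not pass the test. It had 14.4, 57.0 and 234.7 normalized CPM in protoplasted replicates 1, 2 and 3, against 98.3, 209.5 and 364.3 in whole roots. Protoplasted replicate 3 exceeded whole replicates 1 and 2, so the groups overlapped, and the lowest and highest protoplasted libraries were 16.3 times apart. The log2 fold change was -1.13 with a 95% interval of -3.05 to 0.78 (adjusted p = 0.324 in edgeR). With the replicate block it was -1.70 (adjusted p = 0.00303), and without protoplasted replicate 3 it was -2.68 (adjusted p = 0.0231). Over all alternatives the adjusted p ranged between 0.00303 and 0.654.

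Solyc06g076540, the remaining small HSP, was too low to be tested. It had 1, 0 and 10 estimated counts in protoplasts, against 7, 0 and 4 in whole roots, and the groups overlapped. Neither direction could be read at this depth. The 5 small HSPs with a row together took 0.00212%, 0.00634% and 0.0275% of the counts in protoplasted replicates 1, 2 and 3, against 0.0442%, 0.0464% and 0.116% in whole roots. The means were 0.0120% ± 0.0136 in protoplasts and 0.0690% ± 0.0411 in whole roots (SD, n = 3), and every protoplasted library lay below every whole library. In protoplasts most of this sum was Solyc08g062340, which did not pass the test. It made up 14.4, 57.0 and 234.7 of 23.2, 67.8 and 282.3 normalized CPM there. In whole roots it made up 98.3, 209.5 and 364.3 of 400.3, 447.5 and 1142.

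The HSP90 gene Solyc03g007890 fell with a wide spread inside both groups. HSP90 acts late in folding, on kinases, receptors and other signalling clients. Its levels were 17.1, 71.4 and 222.9 normalized CPM in the protoplasted libraries, against 308.5, 594.1 and 1244 in the whole libraries. The groups did not overlap, although replicate 3 exceeded replicate 1 by 13.0 times in protoplasts and 4.03 times in whole roots. The log2 fold change was -2.78 (95% interval -4.70 to -0.87, adjusted p = 0.0320 in edgeR). The call was lost without protoplasted replicate 2 (adjusted p = 0.127), whole replicate 2 (0.0623) or whole replicate 3 (0.0836), and with the replicate block the adjusted p was 4.5e-05, the lowest of its alternatives. Its log2 fold change was -2.12 without whole replicate 3 and -4.04 without protoplasted replicate 3.

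The HSP101 gene Solyc03g115230 ran closely beside the HSP90 gene. It had 9.18, 49.4 and 96.3 normalized CPM in protoplasted replicates 1, 2 and 3, against 165, 412 and 654.5 in whole roots. Protoplasts were again below whole roots in every library, with replicate 1 lowest in each group. The log2 fold change was -2.99, or 7.93-fold lower (standard error 0.77, adjusted p = 0.0177 in edgeR), and without protoplasted replicate 2 it was -2.96 with an adjusted p of 0.0804 (2.1e-05 to 0.0804 over all alternatives). Without protoplasted replicate 3 it was -3.83.

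The HSP70 gene Solyc11g066060 varied by at most 1.25 times between replicates of a group. HSP70 proteins take part in folding and import of proteins in unstressed as well as stressed cells. Its levels were 470.2, 568.1 and 588.0 normalized CPM in protoplasts, against 625.5, 777.2 and 743.9 in whole roots. The protoplasted libraries lay just below the whole libraries without overlap, and the log2 fold change of -0.40 did not pass the test (95% interval -0.84 to 0.04, adjusted p = 0.140 in edgeR). With the replicate block it had the same size and passed (-0.40, adjusted p = 0.0268, the lowest of its alternatives, which reached 0.324).

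The BiP gene Solyc08g082820 moved the other way. It had 1379, 1247 and 1122 normalized CPM in protoplasted replicates 1, 2 and 3, against 510.3, 372.8 and 256.5 in whole roots. Every protoplasted library was above every whole library, and replicate 3, the highest for the genes that fell, was the lowest in both groups here. The log2 fold change was 1.72 (95% interval 1.10 to 2.33), or 3.29-fold higher (adjusted p = 0.00215 in edgeR), which is below the log2 fold change of 2 that the study used to define protoplast-induced genes. Over the alternatives its log2 fold change ranged between 1.5 and 1.99, and it passed in each of them.

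**Figure D2:**
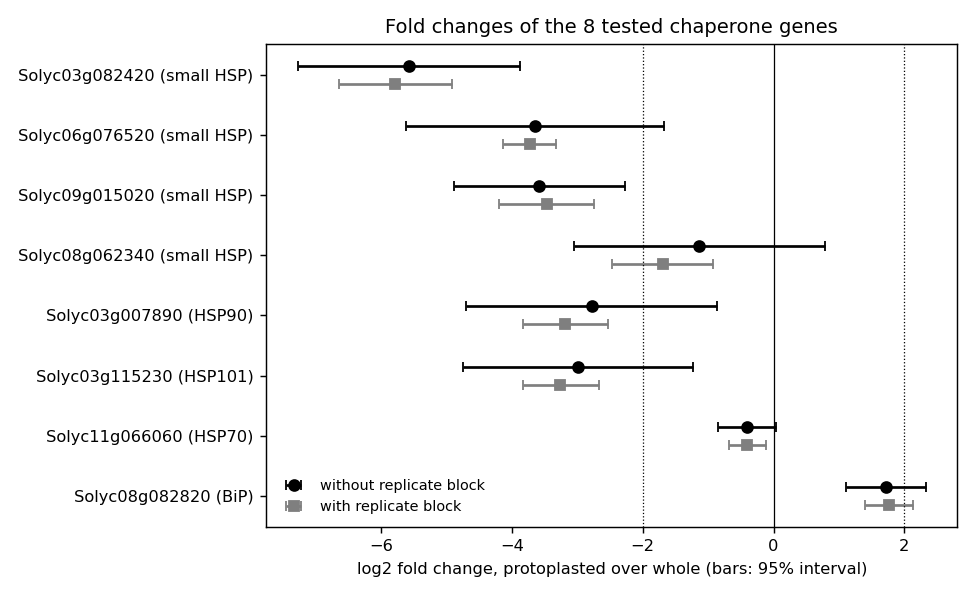
Fitted log2 fold change of protoplasted over whole roots for the 8 tested chaperone genes, with 95% intervals, in the fit without a replicate block (black) and with it (grey); dotted lines mark 2 and -2. Intervals are narrower with the block, in which Solyc08g062340 and the HSP70 gene reach an adjusted p under 0.05 (not drawn) with fitted values between -2 and 0. The BiP gene alone lies to the right of 0.

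Without regard to the fit, 6 of the 8 tested genes were lower in every protoplasted library than in any whole library and 1 was higher in every one. Among all genes tested, 25.6% were fully separated downwards and 25.1% upwards. Because the libraries with the same replicate number tended to deviate together, ratios were also taken within each number. Solyc06g076520 had nearly the same log2 ratio in each, with -3.96, -3.69 and -3.59 for replicates 1, 2 and 3. The HSP90 gene had -4.17, -3.06 and -2.48, and the HSP101 gene had -4.17, -3.06 and -2.76. Both genes thus differed less between protoplasted and whole roots in replicate 3 than in replicate 1. Solyc08g062340 had -2.77, -1.88 and -0.63, so that it was lower in protoplasts within each number even though the groups overlapped. The BiP gene had 1.43, 1.74 and 2.13.

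**Figure D3:**
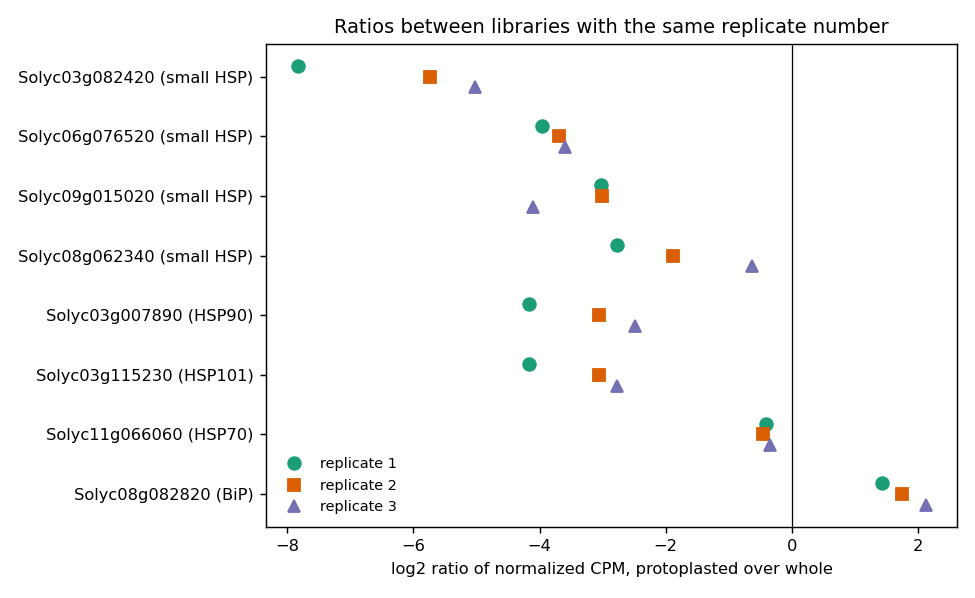
Log2 ratio of normalized CPM between the protoplasted and the whole library of the same replicate number, for the 8 tested chaperone genes. All 3 ratios are negative for 7 genes and positive for the BiP gene; those of Solyc06g076520 and the HSP70 gene lie close together and those of Solyc03g082420 spread from -7.84 to -5.03.

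The chaperone genes that fell, and Solyc08g062340, shared a difference between replicates that the groups do not define. Replicate 3 was the highest library in both groups for 6 of the 8 tested genes, where 22.6% of all genes tested had this pattern. It was also so for 7 of the 10 exodermal suberin genes analysed, and neither the labels nor the methods name a condition that sets replicate 3 apart. Deviations from the group mean (log2 of CPM plus 0.5) reached their extremes of -1.98 and 2.00 in Solyc08g062340 among protoplasts. For the HSP70 gene they stayed between -0.198 and 0.125 in both groups. With both libraries numbered 3 left out, an alternative added after seeing the data, 6 genes were lower and 1 was higher, where 15.8% and 10.6% of all genes tested in that fit were lower and higher. The count of lower genes rose by 1 because Solyc08g062340 then passed (log2 fold change -2.16, adjusted p = 0.0388 in edgeR).

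Outside the list, the locus whose pattern over the 6 libraries was most like that of the summed small HSPs was Solyc01g091260.3.1 (Pearson r of 0.9993 between log2 values). It had 5.43, 14.2 and 41.3 normalized CPM in protoplasts, against 59.6, 61.8 and 143.8 in whole roots. The next were Solyc01g005600.4.1 (r = 0.9969) and Solyc03g083560.1.1 (r = 0.9963). These loci were picked for the highest r among all genes tested outside the list. Pearson r ignores the size of a change, and their log2 fold changes were -2.11, -0.4 and -1.78 in this order. Solyc01g005600.4.1 did not pass the test (adjusted p = 0.18 in edgeR). The points share the same libraries and the difference between groups, and the files do not say what these loci encode. In protoplasts the summed small HSPs were mostly Solyc08g062340.

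The wider chaperone system was described with 39 further loci taken, from general knowledge of the tomato genome, as 8 small HSPs, 11 HSP70 proteins (BiP included), 6 HSP90 proteins, 2 HSP100 proteins and 12 HSFs. No table at hand annotates these loci, so they are counted by class and not named. Of the 37 that were tested, 14 were lower (37.8%) and 3 were higher (8.11%) in protoplasts (edgeR, adjusted p under 0.05), against 18.7% and 17.0% of all genes tested. Under the replicate block 20 were lower (54.1%) and 6 were higher (16.2%), against 24.3% and 25.0% of all genes tested. Without protoplasted replicate 2 there were 9 lower, where 12.4% of all genes tested in that fit were lower. Their median log2 fold change was -0.76. The small HSPs gave 7 of the 14 lower calls, with 7 of 8 lower and a median of -4.13, from -5.71 to -0.78.

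Of the 11 further HSP70 loci, 3 were lower (27.3%) and 2 were higher (18.2%), and their log2 fold changes spanned -4.43 to 1.48. Of the 6 further HSP90 loci, 1 was lower and 1 was higher (16.7% each), with a median of 0.31. These shares lie near those of all genes tested. Both further HSP100 loci were lower, at log2 fold changes of -1.56 and -1.17, where 18.7% of all genes tested were lower. Among the HSFs, the regulators that bind heat shock elements upstream of such genes, 10 of 12 were tested and 1 was lower (10.0%). The HSFs had a median of -0.50 and a range from -1.83 to 0.76. Small HSPs were the class with the lowest median, while HSP70 and HSP90 loci were found on both sides of 0. In the list itself small HSPs also had the lowest median, but each other class there was 1 gene. The listed small HSP Solyc08g062340 had a smaller fold change than the HSP90 and HSP101 genes.

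**Figure D4:**
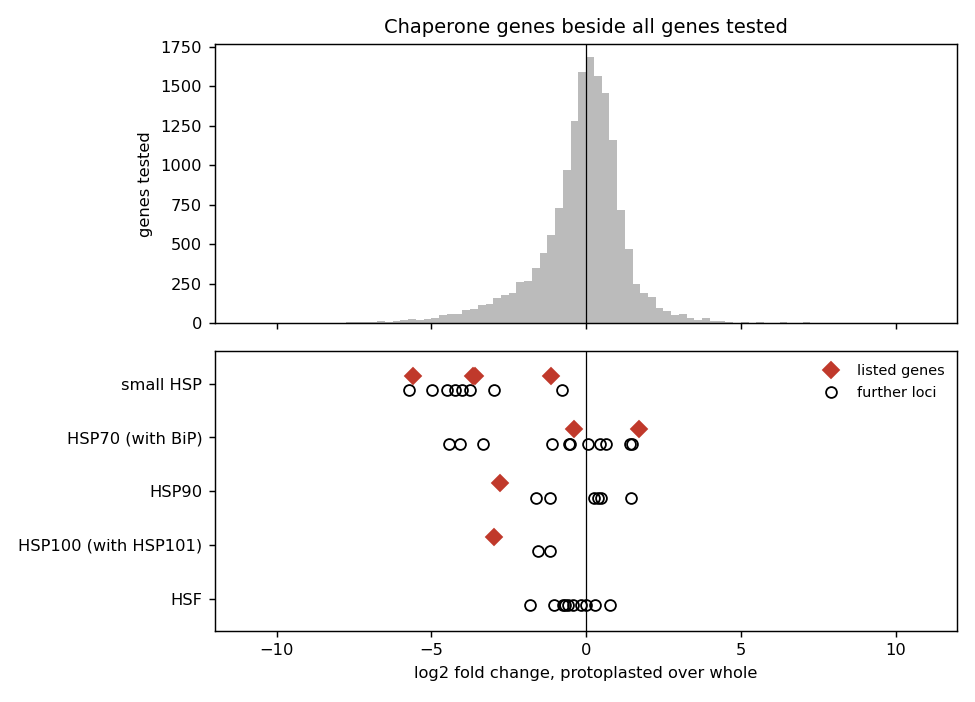
Top, histogram of the log2 fold change (protoplasted over whole) of the 15966 genes tested. Bottom, the same value for the 8 tested genes of the list (diamonds) and the 37 tested further loci (circles), 1 symbol per gene, by class. Small HSPs lie to the left of 0, from -5.71 to -0.78, whereas HSP70, HSP90 and HSF loci lie on both sides.

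Locus numbers follow the order of genes along a chromosome, so the neighbours of the listed chaperones were also counted, as 147 loci with a number within 100 of a listed locus. Of these, 80 were tested, 20 were lower (25.0%) and 7 were higher (8.75%), against 18.7% and 17.0% of all genes tested. Of the lower neighbours, 4 were among the further chaperone loci. Without the further loci, 16 of the 76 tested neighbours were lower (21.1%) and 7 were higher (9.21%). Lower neighbours were most frequent around the chromosome 6 pair, with 7 of the 16 tested near Solyc06g076540, further small HSP loci among them. Higher neighbours were most frequent near the HSP70 gene Solyc11g066060, with 6 of 12, while that gene itself had a log2 fold change of -0.40. Both places were picked out after their values were seen.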

How the data were processed

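The authors trimmed reads of 3′-end RNA-seq libraries with Trim Galore 0.6.6 and pseudo-aligned read 1 to the ITAG4.1 transcriptome with kallisto 0.46.2. The authors deposited these estimated counts per gene model, without normalization, in 1 column per library. A strand option and molecular identifiers are not given in the sources used here. Among rows with a count in any library, 6.33% of values were fractional (tolerance 0.001). Libraries were grouped by their labels.

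Counts were rounded, filtered with filterByExpr (minimum count 10, minimum total 15), normalized by TMM and tested by the quasi-likelihood test of edgeR 4.0.16 in R 4.3.3, with Benjamini-Hochberg adjustment over 15966 genes. Standard errors are the log2 fold change over the root of the F statistic. The code was tested on simulated data. Within groups, every pair of libraries differed by more than counting noise (chi-square over its degrees of freedom 14.2 or more).

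Libraries with the same replicate number had correlated deviations from their group means (r = 0.438, 0.116 and 0.547 for replicates 1, 2 and 3, all over 0.1). Between unlike numbers r lay between -0.48 and 0.027. With 3 libraries per group these values depend on each other, so they cannot establish the pairs. Pairs by number were still used, by a rule of r over 0.1 applied to these same data. They served only for a replicate block, fitted as an alternative, and for the ratios within each number. The pairing comes from the numbers in the sample titles, which name no shared batch. Other alternatives were RLE factors, library size only, other filters, DESeq2 1.42.0, limma-voom (limma 3.58.1), a stricter threshold, rounded counts and each library left out in turn. All listed chaperones with a row were to be named. The listed genes, the further loci and the alternatives were chosen with earlier results of these data known.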

Additional observations from a re-analysis of the deposited data

How the results depend on the processing

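No fold change of a tested chaperone gene changed sign. Over 112 values under alternatives, 103 kept their side of the threshold, 5 lost the call and 4 gained it, and the values for Solyc08g062340, the HSP70 gene and the losses are given above. Solyc09g015020, Solyc03g082420 and the BiP gene passed in every alternative run. At an adjusted p under 0.01, 2 listed genes were lower and 1 was higher. The share over all genes was not counted at that threshold, so no comparison is drawn from these counts. Fits with 1 library left out gave 2 to 6 lower genes and 2 to 6 with a log2 fold change under -2, with the fewest without protoplasted replicate 2. They gave 9 to 15 lower and 3 to 4 higher further loci, and 14 to 19 lower and 2 to 7 higher neighbours. Over all genes tested, the same fits had 12.4% to 18.7% lower and 9.14% to 16.7% higher by adjusted p alone. The share with a log2 fold change under -2 was not counted in these fits. With the replicate block, 6 further loci and 13 neighbours were higher, and with library size only 4 neighbours were higher. Over all genes tested, 25.0% and 11.8% were higher in these fits. The cause was not tested. The block changed no other call of a listed gene. The difference in the share of counts, protoplasted minus whole, was -0.0570 percentage points for small HSPs (-0.0694 to -0.0333 with 1 library left out). For all listed genes it was -0.106 (-0.146 to -0.0506), and both were nearest to 0 without whole replicate 3. The share of all listed genes overlapped between groups, at 0.225% in protoplasted replicate 3 and 0.222% in whole replicate 1. It also includes the BiP gene, which rose. With library size only, the median over all tested genes was -0.14 on the log2 scale, against 0.02 with TMM. Depth limits most the genes with few counts in protoplasts, namely Solyc06g076540, Solyc09g015020 and, in protoplasted replicates 1 and 2, Solyc03g082420.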
